A study of Oryza sativa with 16 samples.

Results

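The libraries described here are the leaf transcriptomes of rice plants that over-express the chimeric histone H4.Vs, set against those of wild-type (WT) leaves. They were chosen by their titles, 2 OE-H4.Vs and 2 WT libraries, which makes 4 of the 16 libraries of the series. All plants were Oryza sativa subspecies Indica, cultivar Pusa Basmati 1, and the leaves were taken from mature, unstressed plants grown in a greenhouse. The study built the transgene by joining the N-terminal part of the variant histone H4.V to the C-terminal part of canonical H4, and drove it with the maize Ubiquitin promoter in lines raised by Agrobacterium transformation with hygromycin selection. The same 2 WT libraries also serve 2 other over-expression lines, OE-H4.V and OE-H4 (2 leaf libraries each), which carry the whole variant and the whole canonical histone. The remaining 8 libraries are WT and h4.v knockout (KO) seedlings with and without salt. In the paper's list of libraries the leaf plants were older than the seedlings. The sample labels give a higher seedling age than that list, the same salt dose and no leaf age. The duplicates are biological according to the design text, but nothing in the sources states whether they came from 1 transformed line or from several, nor whether plants were pooled.

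Histone H4 is one of the core histones around which DNA is wrapped in the nucleosome. Its N-terminal tail reaches out of the particle, touches DNA and neighbouring nucleosomes, and carries lysines whose acetylation is associated with open, transcribed chromatin, whereas its C-terminal part forms the histone fold that pairs with H3. H4.V is a rice variant that differs from canonical H4 mainly towards the N terminus, so the chimera separates that part of the variant from the rest of the protein.

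Before the comparisons, the measured state of the libraries has to be given. The unit is FPKM, fragments scaled to transcript length and to the mapped fragments of the library, for loci that Cufflinks assembled in each library separately, so a gene can be listed at 0 because no locus was assembled there, and read depth is not given. After loci were matched to annotated genes, 11209 leaf genes averaging 1 FPKM or more were tested. The 2 OE-H4.Vs libraries had 13.7% and 16.8% of their FPKM in a single locus shorter than 300 bp, as did WT replicate 1 (17.7%) but not WT replicate 2 (0.133%). The identifiers in the tables are not paired with gene names or products, so leaf markers could not be checked and genes are described by identifier or position, on the coordinates of the deposited tables (IRGSP1.0). In a whole leaf, a change in the number of cells of a type cannot be told apart from a change in RNA per cell.

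The transgene itself could not be read. At the position taken as the H4.V gene (Os05g0462900, chromosome 5, 22743760 to 22744188), no locus was assembled in either OE-H4.Vs library, in either WT leaf library or in the OE-H4 libraries, and the gene was listed at 0 in all of them. The 2 OE-H4.V libraries each had a 302-bp locus there, at 4785 and 4492 FPKM. These libraries therefore give no check of the OE-H4.Vs label from its own transcript, although part of the chimera encodes H4.V residues. The paper's forward primer for the H4.Vs transgene follows its codon-optimised sequence, listed for expression in E. coli, and differs from its primer for the H4.V coding sequence. The cloning methods of the paper instead describe H4.Vs as joined from PCR fragments of H4.V and H4, both amplified from seedling cDNA. Whether reads from the chimera would map to the H4.V gene was not tested. The paper shows over-expression of the transgenes in leaves by semi-quantitative RT-PCR.

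The replicates of OE-H4.Vs were less alike than those of the other leaf groups. The median absolute difference between the 2 OE-H4.Vs libraries was 0.24 on the log2(FPKM + 1) scale, against 0.23 in the OE-H4.V, 0.17 in the OE-H4 and 0.17 in the WT libraries. Between them, 333 genes (2.97%) differed by more than 1.5, against 202 between the OE-H4.V, 182 between the OE-H4 and 190 between the WT libraries. Across the 11209 genes, which are not independent replicates and share the annotation, the levels of the 2 OE-H4.Vs libraries had a Pearson correlation of 0.932. OE-H4.Vs replicate 1 had 0.933 and 0.924 with the OE-H4.V libraries and 0.924 and 0.927 with the OE-H4 libraries, and replicate 2 had 0.943 and 0.938 with OE-H4.V and 0.891 and 0.905 with OE-H4. With WT leaf the correlation was 0.851 and 0.863 for replicate 1 and 0.878 and 0.882 for replicate 2. Replicate 1 was thus about as near to the OE-H4 as to the OE-H4.V libraries, replicate 2 was nearer to OE-H4.V, and both had their lowest correlations with WT.

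To ask which leaf genes differ in plants that express the chimera, OE-H4.Vs was compared with WT. A differentially expressed gene (DEG) had an unadjusted p under 0.05 from limma and an absolute difference over 1.5 on the log2(FPKM + 1) scale. By this rule 523 genes (4.67% of those tested) were DEGs, 357 higher (3.18%) and 166 lower (1.48%) in OE-H4.Vs. Of the 523, 397 also had an adjusted p under 0.05 (limma, Benjamini-Hochberg), 269 higher and 128 lower. Of all genes tested, 787 (7.02%) had an adjusted p under 0.05 at any fold. The median difference over all genes was 0.09, so the scale as a whole moved little.

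The higher DEGs were mostly genes at very low levels in WT leaf. Their median level was 7.43 FPKM in OE-H4.Vs and 0.0870 FPKM in WT, while that of all tested genes was 9.65 FPKM in OE-H4.Vs and 8.88 FPKM in WT. The lower DEGs had a median of 0.694 FPKM in OE-H4.Vs and 11.2 FPKM in WT. Of the 357 higher DEGs, 151 were listed at 0 in both WT leaf libraries, and of the 166 lower DEGs, 55 were listed at 0 in both OE-H4.Vs libraries. Over the other DEGs the median difference was 1.91 for the 206 higher and -2.04 for the 111 lower. Leaving out genes at 0 in any of the 4 libraries and refitting left 237 DEGs, 153 higher and 84 lower.

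**Figure D1:**
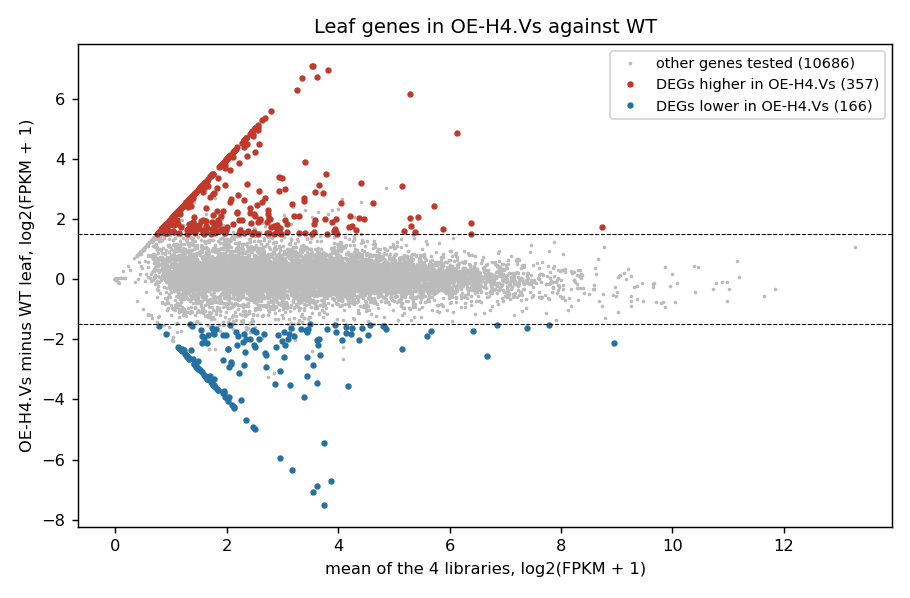
OE-H4.Vs minus WT leaf difference (vertical axis, log2(FPKM + 1)) against the mean of the 4 libraries (horizontal axis, log2(FPKM + 1)), with 1 point for each of the 11209 genes tested; red and blue points are the 357 higher and 166 lower DEGs, and dashed lines mark the cut-off of 1.5. The straight edges of points at the left are genes listed at 0 in a whole group, 151 of the higher and 55 of the lower DEGs.

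The largest rises were at genes listed at 0 in WT leaf. A gene without an identifier on chromosome 8 (5691120 to 5697423) had 94.2 and 192 FPKM in OE-H4.Vs and 0 in both WT libraries (adjusted p = 4.1e-05). Os12g0115300 (chromosome 12, 746162 to 747120) had 113 and 157 FPKM in OE-H4.Vs and 0 in both WT libraries (adjusted p = 6e-06). Neither rise was particular to the chimera, since the OE-H4.V libraries had 108 and 86.6 FPKM at the first gene and 105 and 129 FPKM at Os12g0115300. The OE-H4 libraries had 85.7 and 93.1 FPKM at the first gene and 68.9 and 82.4 FPKM at Os12g0115300. In direct tests OE-H4.Vs did not pass the threshold against either line at either gene (adjusted p = 0.101 to 0.844).

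The largest falls were genes for which the OE-H4.Vs libraries list 0. No value above 0 was found for Os06g0347100 (chromosome 6, 13947426 to 13951272) in either OE-H4.Vs library, against 185 and 176 FPKM in WT leaf (adjusted p = 4.5e-06). Os02g0310200 (chromosome 2, 12185506 to 12187024) was at 0 in both OE-H4.Vs libraries, against 138 and 132 FPKM in WT leaf (adjusted p = 4.8e-06). All 4 libraries of the other lines list 0 for both genes too. Both genes thus passed the filter on leaf levels only through WT leaf. Their p-values describe the genes and are no separate support for a difference. Os02g0310200 was at 0 in both unstressed WT seedling libraries as well, while Os06g0347100 could not be measured in seedlings.

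Genes absent on one side of the comparison were therefore followed through the seedling libraries, which took no part in the leaf fit. Of the 151 DEGs at 0 in both WT leaf libraries, 132 could be measured in seedlings, and 106 of these (80.3%) had at least 1 FPKM in both unstressed WT seedling libraries. Over all genes tested in leaf, 9690 of the 10418 measured in seedlings (93.0%) did, a higher share. For the 132, the median on the log2(FPKM + 1) scale was 2.77 and 2.67 in OE-H4.Vs leaves, 0 in both WT leaf libraries, and 2.62 and 2.49 in WT seedlings. Of the 151, 112 had at least 1 FPKM in all 4 OE-H4.V and OE-H4 libraries, as did 10171 of all 11209 genes tested. In the other direction, 54 of the 55 DEGs at 0 in both OE-H4.Vs libraries could be measured in seedlings, and 45 of these (83.3%) were at 0 in both WT seedling libraries. Over all genes measured in seedlings the share was 1.40%. Of the 55, 43 were at 0 in all OE-H4.V and OE-H4 libraries, and 35 were at 0 in all 8 seedling libraries. Over all genes these counts were 55 of the 11209 tested and 63 of the 10418 measured in seedlings. Genes at 0 on one side passed the filter on leaf levels through the groups where they are high, so these shares describe the genes listed at 0 and are no support for a difference between groups. All libraries carry the same cultivar label, and no other WT leaf library was analysed here.

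**Figure D2:**
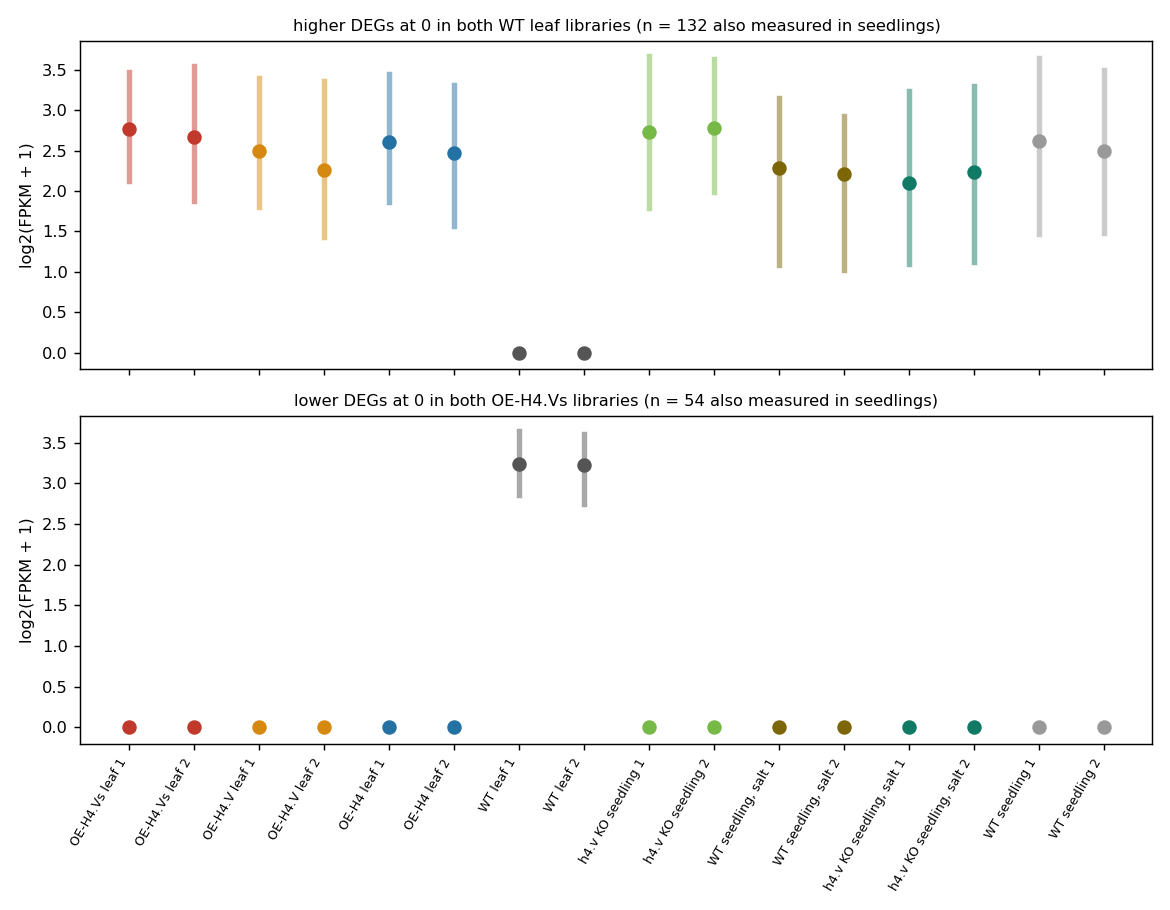
Median (point) and interquartile range (bar) of log2(FPKM + 1) in each of the 16 libraries, for 132 higher DEGs listed at 0 in both WT leaf libraries (upper panel) and 54 lower DEGs listed at 0 in both OE-H4.Vs libraries (lower panel). In the upper panel only the WT leaf libraries lie at 0, a value that chose these genes, while the WT seedling medians are 2.62 and 2.49; in the lower panel only the WT leaf medians lie above 0.

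Examples are the 2 genes on each side with the highest mean level among DEGs at 0 on the other side, measured in seedlings and not given above. A gene on chromosome 2 (16347717 to 16350263) had 47.3 and 46.5 FPKM in OE-H4.Vs and 0 in both WT leaf libraries, beside 25.9 and 24.3 FPKM in WT seedlings. On chromosome 12 (891782 to 898384) a gene had 71.1 and 10.7 FPKM in OE-H4.Vs, unequal between the replicates, and 0 in both WT leaf libraries, beside 20.8 and 12.1 FPKM in WT seedlings. Conversely, a gene on chromosome 3 (21030442 to 21031298) was at 0 in OE-H4.Vs, against 79.8 and 81.1 FPKM in WT leaf, and was at 0 in all 8 seedling libraries. A gene on chromosome 6 (1880537 to 1890909) was at 0 in OE-H4.Vs, against 41.9 and 85.5 FPKM in WT leaf, and was also at 0 in all 8 seedling libraries.

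The same comparison with WT was then set beside those of the other lines, which share the 2 WT libraries, so that agreement between them is partly built in. All the over-expression lines were raised by transformation, and no leaf library came from transformed plants without a histone transgene. A difference from WT shared by the lines was therefore not tested apart from transformation. Over the 357 higher DEGs of OE-H4.Vs the median difference from WT was 2.16 in OE-H4.Vs, 1.85 in the OE-H4.V line and 2.15 in the OE-H4 line. Over the 166 lower DEGs it was -2.47 in OE-H4.Vs, -2.37 in the OE-H4.V line and -2.61 in the OE-H4 line. Against WT, OE-H4.V had 452 DEGs (4.03%) and OE-H4 had 823 (7.34%). The values of the OE-H4.Vs DEGs were used to choose them, which raises the OE-H4.Vs medians relative to the others.

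Direct comparisons between the lines do not use the WT means, although the WT libraries enter the filter and the shared estimate of spread. OE-H4.Vs against OE-H4.V gave 68 DEGs (0.607%), 39 higher and 29 lower in OE-H4.Vs, of which 12 had an adjusted p under 0.05. OE-H4.Vs against OE-H4 gave 213 DEGs (1.90%), 124 higher and 89 lower, of which 84 had an adjusted p under 0.05. OE-H4.V against OE-H4 gave 248 DEGs (2.21%), of which 61 had an adjusted p under 0.05. Among the 523 DEGs of OE-H4.Vs against WT, 4 had an adjusted p under 0.05 against OE-H4.V (4 of the 357 higher and 0 of the 166 lower), where 0.107% of all genes had one, and 13 against OE-H4 (8 higher and 5 lower), where 1.12% of all genes had one. The OE-H4.Vs values that chose the 523 DEGs also enter these direct tests, so a share above that of all genes is partly built in. A gene that missed the threshold is not shown to be equal between lines. The median standard error of these differences was 0.31 on the log2 scale over the higher DEGs. The direct counts depended on single libraries: against OE-H4.V the count was 122 without OE-H4.Vs replicate 1 (51 higher and 71 lower), 195 without OE-H4.Vs replicate 2 and 123 without OE-H4.V replicate 1, and against OE-H4 it was 401 without OE-H4.Vs replicate 1. With only the 4 libraries compared in the fit and the filter, an alternative chosen after seeing the data, the counts were 69 and 208.

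Against OE-H4.V, the largest differences at an adjusted p under 0.05 included the gene over-expressed in that line, Os05g0462900, listed at 0 in OE-H4.Vs. The next largest fall was Os06g0295900 (chromosome 6, 10926731 to 10928479), with 0 and 0.480 FPKM in OE-H4.Vs and 35.1 and 27.8 FPKM in OE-H4.V, a difference of -4.73 ± 0.23 (SE, adjusted p = 0.0012). The OE-H4 libraries averaged 13.5 ± 0.609 FPKM (SD, n = 2) and WT leaf had 0 in both libraries, so that OE-H4.Vs lay with WT (difference 0.28 ± 0.23, adjusted p = 0.526) and apart from both other lines. Os11g0133600 (chromosome 11, 1552041 to 1554077) was higher, with 7.87 and 8.96 FPKM in OE-H4.Vs and 0.138 and 0 FPKM in OE-H4.V, a difference of 3.14 ± 0.17 (adjusted p = 0.0016). Here OE-H4 (9.73 and 8.60 FPKM) and WT leaf (8.51 and 7.46 FPKM) were at the level of OE-H4.Vs, so the low values were those of OE-H4.V.

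Against OE-H4, the largest rises were Os12g0630100 and Os02g0240300. Os12g0630100 (chromosome 12, 26956203 to 26956894) had 97.8 and 20.5 FPKM in OE-H4.Vs and 0 in both OE-H4 libraries (adjusted p = 0.0151), beside values of 14.5 and 13.2 FPKM in the OE-H4.V line and 3.40 and 2.82 FPKM in WT leaf. It was also a DEG against WT, at 3.49 ± 0.61 (adjusted p = 0.0202). Os02g0240300 (chromosome 2, 7948543 to 7949997) had 40.9 and 131 FPKM in OE-H4.Vs and 0 and 2.71 FPKM in OE-H4 (5.27 ± 0.73, adjusted p = 0.0292), and its WT leaf values (mean 84.3 ± 6.04 FPKM, SD, n = 2) lay within the range of OE-H4.Vs. Neither call held without every library, as the adjusted p for Os12g0630100 was 0.0753 without OE-H4 replicate 1 and 0.0683 without replicate 2, and that for Os02g0240300 was 0.0826 without OE-H4.Vs replicate 2 and 0.0891 without OE-H4 replicate 1. In the fit of the 4 libraries compared, the adjusted p was 0.143 for Os12g0630100 and 0.148 for Os02g0240300.

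The largest falls against OE-H4 were genes whose highest leaf levels were in OE-H4. Os01g0644000 (chromosome 1, 25926370 to 25928206) had 1.71 and 0 FPKM in OE-H4.Vs and 43.2 and 15.3 FPKM in OE-H4 (-4.03 ± 0.60, adjusted p = 0.0344), and the adjusted p was 0.0881 without OE-H4.Vs replicate 2 and 0.132 without OE-H4 replicate 1. Os07g0136300 (chromosome 7, 1912083 to 1914175) was at 0 in both OE-H4.Vs libraries, against 7.14 and 17.0 FPKM in OE-H4 (adjusted p = 0.0112), and was at 0 in OE-H4.V and in WT leaf as well. Os07g0136300 thus passed the filter on leaf levels only through OE-H4, so its p-values are no separate support for a difference. In the fit of the 4 libraries compared, the adjusted p was 0.161 for Os01g0644000 and 0.116 for Os07g0136300.

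Genes that set OE-H4.Vs apart from all 3 other leaf groups were few. With a DEG call, 1 direction and an adjusted p under 0.05 required in each of the 3 comparisons, 3 genes remained, all higher in OE-H4.Vs. Without the adjustment in the direct comparisons there were 10, of which 9 were higher and 1 was lower. The first was Os03g0180500 (chromosome 3, 4216734 to 4219053), at 12.5 and 20.5 FPKM in OE-H4.Vs. It was at 0 in 13 of the 14 other libraries of the series, seedlings included, and at 0.0376 FPKM in OE-H4 replicate 2. Os03g0180500 passed the filter on leaf levels only through OE-H4.Vs, so its p-values describe the gene and are no separate support for a difference. The adjusted p was 0.00022 against WT, 0.0029 against OE-H4.V and 0.0045 against OE-H4. With only the 4 libraries compared in each direct fit it was 0.0471 against OE-H4.V and 0.0840 against OE-H4, which ends the call against OE-H4.

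A gene on chromosome 7 (15293180 to 15294805) was at 5.67 and 5.41 FPKM in OE-H4.Vs and at 0 in all 14 other libraries (adjusted p = 0.00048 against WT). This gene also passed the filter only through OE-H4.Vs, so its p-values are no separate support. The call against OE-H4.V was lost with a pseudocount of 0.1 (adjusted p = 0.0846). With only the 4 libraries compared both direct calls were lost (adjusted p = 0.0578 against OE-H4.V and 0.0922 against OE-H4). The other gene, on chromosome 2 (25442875 to 25450093), was present in every leaf library, at 24.8 and 24.4 FPKM in OE-H4.Vs, 5.06 and 4.45 FPKM in the OE-H4.V line, 3.11 and 2.78 FPKM in the OE-H4 line, and 3.91 and 2.64 FPKM in WT. It rose by 2.60 ± 0.19 against WT, 2.16 ± 0.19 against OE-H4.V and 2.70 ± 0.19 against OE-H4 (adjusted p = 0.00032, 0.0115 and 0.0045). For this gene the difference from OE-H4.V was 0.62 (adjusted p = 0.680) when the FPKM of its loci were summed without weights, and without OE-H4.V replicate 2 it was 2.08 (adjusted p = 0.0667). Leaving out a single OE-H4.Vs library gave 20 such genes without replicate 1 and 19 without replicate 2, the 3 genes among them each time. Without OE-H4 replicate 1 there were 7, and without WT replicate 2 there were 5, again with the 3 among them.

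**Figure D3:**
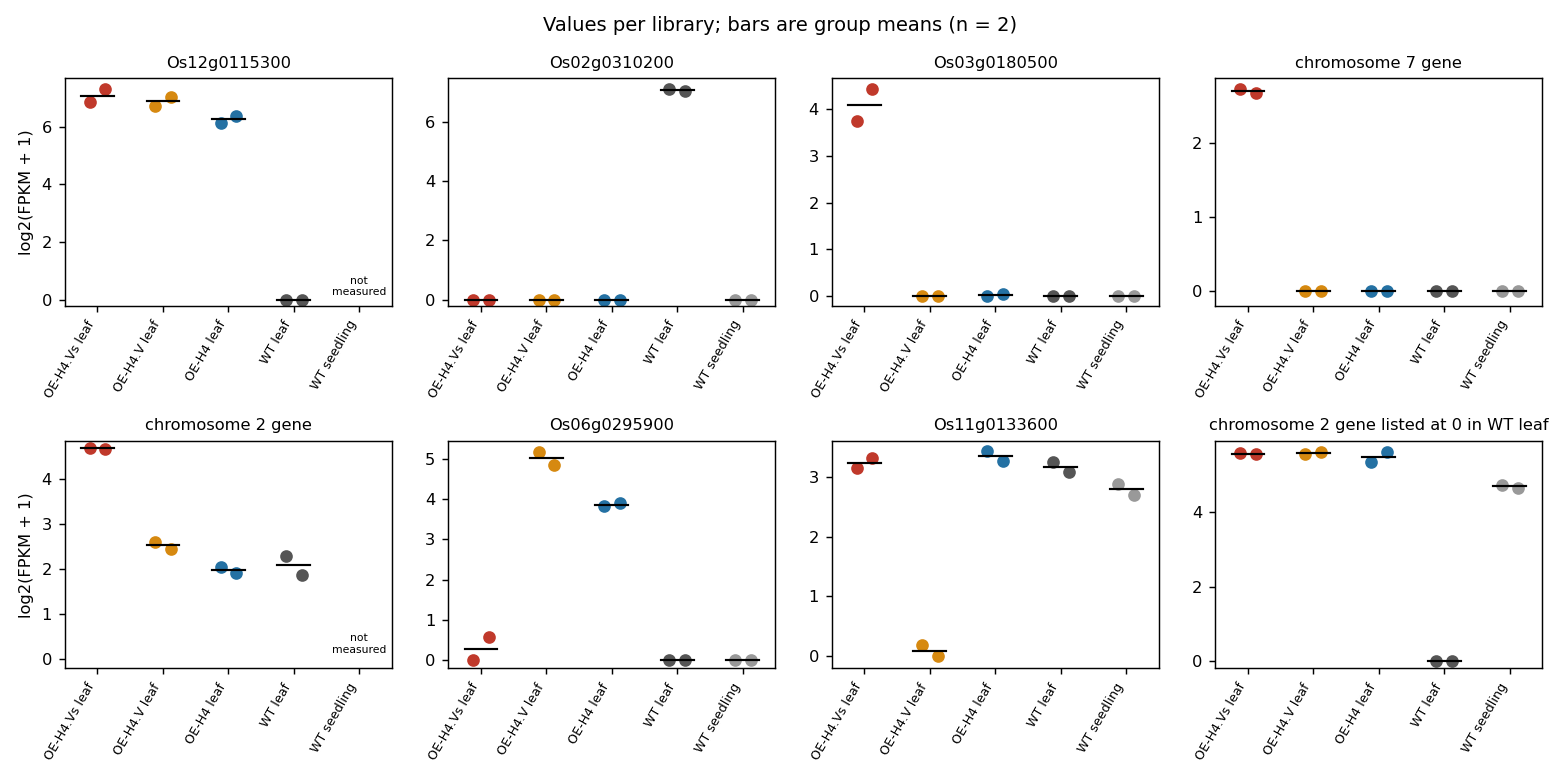
Values per library (points) and group means (bars, n = 2) on the log2(FPKM + 1) scale for 8 genes, with OE-H4.Vs at the left, then OE-H4.V, OE-H4, WT leaf and WT seedling; the 3 genes that set OE-H4.Vs apart are Os03g0180500, the chromosome 7 gene and the first chromosome 2 gene. Os12g0115300 and Os02g0310200 separate WT leaf from all 3 lines, and Os06g0295900 shows OE-H4.Vs at 0 and 0.480 FPKM beside WT at 0.

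The chimera shares its N-terminal part with H4.V and its C-terminal part with H4, so its place between the 2 other lines was measured at genes that separate those lines. They were the 138 DEGs with an adjusted p under 0.05 in a fit and filter of only the 4 OE-H4.V and OE-H4 libraries, 70 of them higher in OE-H4.V, with Os05g0462900 itself among them. On a scale where the OE-H4 mean is 0 and the OE-H4.V mean is 1, the median position was 0.614 (interquartile range 0.194 to 0.887) in OE-H4.Vs replicate 1 and 1.00 (0.796 to 1.14) in replicate 2, so the 2 replicates differed in their place. The mean of the 2 libraries had a median of 0.762, and was nearer to OE-H4.V at 105 of the 138 genes and nearer to OE-H4 at 33. WT leaf, which carries neither transgene, was nearer to OE-H4.V at 101 of these genes, with a median position of 1.00. At the 37 genes where WT was nearer to OE-H4, OE-H4.Vs was nearer to OE-H4.V at 25 and nearer to OE-H4 at 12, with a median of 0.592.

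The choice of genes moved the place of replicate 1. With the 61 genes chosen by the same cut-offs in the fit of all 8 leaf libraries, where the OE-H4.Vs libraries entered the shared spread and the filter, the median was 0.842 in replicate 1 and 1.00 in replicate 2. Their mean was nearer to OE-H4.V at 56 of the 61 genes, and at 13 of the 17 where WT was nearer to OE-H4. The set of 138 was made after this one had been seen.

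**Figure D4:**
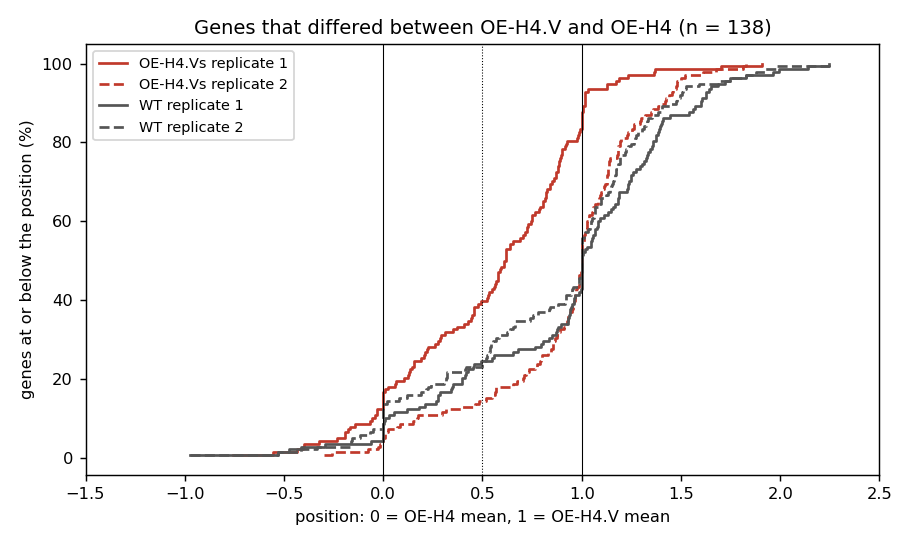
Cumulative share of the 138 genes (vertical axis, percent) at or below a position between OE-H4 (0) and OE-H4.V (1) on the log2(FPKM + 1) scale (horizontal axis), for each OE-H4.Vs library and each WT leaf library. The curve of OE-H4.Vs replicate 1 lies to the left (median 0.614) and that of replicate 2 lies near 1.00, as do those of the WT libraries.

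The DEGs of OE-H4.Vs against WT were also looked up in the seedling comparisons, which use other libraries. Of the 289 higher DEGs tested in seedlings, 15 (5.19%) rose and 17 (5.88%) fell in h4.v KO relative to WT seedlings, where 1.67% and 4.26% of all seedling genes were called. Of the 89 lower DEGs tested there, 4 rose and 4 fell in the knockout (4.49% each). Under salt, 16 of the higher DEGs (5.54%) were higher and 36 (12.5%) lower in WT seedlings, where 3.38% and 8.24% of all genes were called. Of the lower DEGs, 3 (3.37%) were higher and 22 (24.7%) lower under salt. The leaf and seedling fits used different tissues and ages, and the difference between these shares and the background was not tested.

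By position, DEGs were spread over all 12 chromosomes but unevenly. The share of tested genes called was lowest on chromosome 7 (2.47%, 16 higher and 6 lower) and highest on chromosome 12 (8.51%, 33 higher and 16 lower), followed by chromosome 6 (7.57%) and chromosome 9 (6.36%). Of the 523 DEGs, 122 (23.3%) had an adjacent tested gene that was a DEG in the same direction. They formed 54 runs, of which 44 held 2 genes, 6 held 3 and 4 held 4, the longest. Of all genes tested, 3.18% were higher and 1.48% were lower DEGs. No share of all tested genes with such a neighbour is given, so the 23.3% is a description only.

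**Figure D5:**
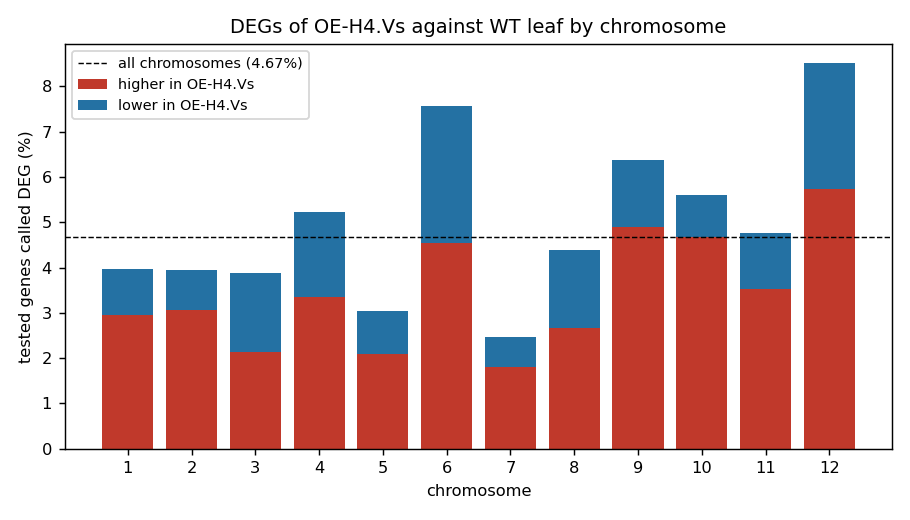
Percent of tested genes on each of the 12 rice chromosomes called DEG in OE-H4.Vs against WT leaf, split into higher (red) and lower (blue); the dashed line is the share over all chromosomes (4.67%). Chromosome 12 stands highest at 8.51% and chromosome 7 lowest at 2.47%.

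In the runs of 4, WT leaf lay below or above OE-H4.Vs at each neighbour, as a run requires, at levels that could differ within a run. On chromosome 9, between 16029442 and 16084120, 4 genes were higher, by 3.15 at the second and 1.77 at the last, while the other 2 were at 0 in both WT leaf libraries. The first had 16.4 and 19.6 FPKM in OE-H4.Vs and 0 in both WT leaf libraries, beside 8.96 and 9.82 FPKM in WT seedlings, and the last had 35.8 and 32.0 FPKM in OE-H4.Vs and 9.23 and 9.26 FPKM in WT leaf, beside 42.8 and 43.0 FPKM in WT seedlings. On chromosome 3, between 17008027 and 17054293, 4 genes were higher, the first at 35.5 and 21.6 FPKM in OE-H4.Vs and 0 and 0.124 FPKM in WT leaf, beside 12.7 and 9.32 FPKM in WT seedlings. On chromosome 8, between 3420573 and 3441867, 4 genes were lower, one of which (3425736 to 3428059) was at 0 in OE-H4.Vs and in every other library but the 2 of WT leaf, where it had 8.34 and 8.93 FPKM. The remaining run, on chromosome 3 between 25978555 and 26035297, rested on unequal replicates at its 2 last genes, with 23.6 and 4.98 FPKM and 19.9 and 6.25 FPKM in OE-H4.Vs, against 0.572 and 0.970 FPKM and 0.786 and 1.22 FPKM in WT leaf. At the first of these 2 genes OE-H4 had 0.188 and 1.05 FPKM, near WT leaf. The second gene of the run from 17008027 (limma, adjusted p = 0.0586) missed the adjusted threshold, as did the last of the chromosome 8 run (adjusted p = 0.0605). Whether neighbours differ more often than by chance was not tested.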

How the data were processed

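Total RNA was extracted from mature leaves and seedlings and libraries were made with the NEBNext Ultra II Directional kit, after poly(A) enrichment in the paper's methods, which state it for seedlings. Per the labels the authors used Trimmomatic, HISAT2 and Cufflinks 2.2.1, with IRGSP1.0 as the genome in the paper's methods. The authors deposited FPKM per locus and library, with Cufflinks' confidence bounds and without counts, so depth is unknown and count tests were not run.

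Loci were matched to annotated spans with BEDTools 2.31.1, on the 12 chromosomes. The tables gave 29766 spans with an identifier and 5238 without, of which 30384 were kept as genes after spans under 200 bp and spans lying by 50% or more in a longer one were left out. A locus went to the gene that held at least 50% of it, unless it covered a second gene by 50% or more, and a gene's FPKM was the sum of its loci weighted by the share of the gene overlapped. In leaf, 5438 genes with ambiguous loci were left out of the 30384, and 11209 of the 24946 kept had a mean of at least 1 FPKM. Tests used limma 3.58.1 in R 4.3.3 on log2(FPKM + 1), with all 8 leaf libraries, 1 mean per group and a trended prior, and differences on that scale understate those of low genes. Standard errors (SE) are limma's. The DEG cut-offs have the values given in the paper's methods, applied here to limma's p and to differences of log2(FPKM + 1) in place of Cufflinks' own. Seedlings were fitted apart over their 8 libraries. On simulated data for the 11209 genes, OE-H4.Vs against WT, 196 of 200 genes changed by 3 on the log2 scale were called, with 38 unchanged genes called. Tables were handled with pandas 2.3.3 and NumPy 2.4.6 in Python 3.11.15, and figures drawn with matplotlib 3.10.9.

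Genes were named by rule, as the largest changes in each direction at an adjusted p under 0.05, H4.V by position, genes at 0 on one side with the highest level on the other, and genes that differ from all 3 other groups. At most 2 identifiers per direction and comparison are printed, and the other genes by position. Planned lists of histone, stress, hormone and photosynthesis genes and of cell markers could not be applied, because the tables name no products. Members, lists and tests were chosen with earlier results of these data known. The alternatives were other scalings, pseudocounts, filters, cut-offs, matching rules, fits and left-out libraries.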

Additional observations from a re-analysis of the deposited data

Results flagged for a closer look

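Loci of at least 300 bp with at least 20 FPKM in both OE-H4.Vs libraries and at most a fraction of 1 in 10 of that in each other leaf library were looked for outside the tested genes, and 2 were found. On chromosome 7, a locus at 589051 to 594540 in OE-H4.Vs replicate 1 and 589481 to 594592 in replicate 2 overlapped no annotated gene. It had 57.9 FPKM (Cufflinks' bounds 53.4 and 62.4) and 93.6 FPKM (86.3 and 101) in OE-H4.Vs and 0 in the 6 other leaf libraries, WT included. In unstressed WT seedlings loci there had 8.18 and 15.1 FPKM, and the other 6 seedling libraries were at 0. On chromosome 3, a locus from 14247541 to 14268736 in replicate 1, over a gene left out of the test, had 77.4 FPKM (73.1 and 81.7) and 93.1 FPKM (88.2 and 98.1) in OE-H4.Vs, against 5.29 and 6.66 FPKM in WT leaf. In OE-H4.V it was at 0 in both libraries and in OE-H4 at 0 and 1.23 FPKM, and the highest seedling value was 0.0289 FPKM. Both were chosen by these values, which are given without a test.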

How the results depend on the processing

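With 2 libraries a group and no counts, depth is unknown, and p-values measure the spread between these duplicates. OE-H4.Vs against WT gave 523 DEGs, and 155 with a pseudocount of 5, 257 at a mean of at least 5 FPKM, 237 with genes above 0 in all 4 libraries and 903 at a cut-off of 1, while leaving out 1 library gave 502 to 694. The count stayed within 1.5 times under the other alternatives, among them 709 with a pseudocount of 0.1 and 517 without loci under 300 bp (516 shared), an alternative chosen after seeing the data. Against OE-H4.V (68) the count was 105 with a pseudocount of 0.1, 10 with 5, 38 at a mean of at least 5 FPKM, 145 at a cut-off of 1 and 12 by adjusted p, and 101 to 195 without 1 library. Against OE-H4 (213) it was 333 and 80 with these pseudocounts, 514 at a cut-off of 1 and 84 by adjusted p, and 238 to 401 without 1 library. With a pseudocount of 5, 7 of the 10 DEGs against OE-H4.V were lower in OE-H4.Vs, and without OE-H4.Vs replicate 1 71 of 122, where 29 of 68 were lower. Genes that differ from all 3 groups numbered 3, and 8 without a filter, 1 at a mean of at least 5 FPKM, 5 with plain sums, and 3 to 20 without 1 library. The causes were not tested.

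With the replicate number as a block, OE-H4.Vs against WT gave 523 DEGs (517 shared), against OE-H4.V 72 and against OE-H4 217. Same-numbered libraries had correlations of their deviations from -0.08 to 0.10, so the numbers do not pair the samples. Of 289 values of 20 fold changes of named genes under the alternatives, 270 kept their call and direction, and 19 kept the direction but lost the call, all in the direct comparisons. Alternatives under which a gene was no longer tested gave no value for it and are not counted. Among these, the chromosome 7 gene at 15293180 had none with 80% of a locus required in the gene. Neither it nor Os03g0180500 had one at a mean of at least 5 FPKM. Lists of named gene products gave no value under any alternative.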
